A study of Mus musculus with 12 samples.

Results

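Common lymphoid progenitors (CLPs) are bone marrow cells that give rise to B cells, T cells and other lymphocytes. The genes described here are 10 genes of the immunoglobulin light chain and the pre-B cell receptor, chosen by symbol: the light-chain constant genes Igkc, Iglc1, Iglc2 and Iglc3, the surrogate light-chain genes Igll1, Vpreb1 and Vpreb3, and the receptor signalling genes Cd79a, Cd79b and Blnk. All 10 were found among the 47643 genes of the expression table, and all 10 were among the 14479 genes with a mean of at least 1 TPM (a length-scaled count that sums to 1000000 in each library) that were tested. Poly(A)+ RNA-seq had been done on CLPs sorted from the bone marrow of male mice aged 27 to 32 weeks, with 4 libraries in each of 3 groups. WT mice carried the intact Firre locus, which makes a long noncoding RNA on the X chromosome. KO mice lacked the whole Firre gene (∆Firre), gene body and promoter included. Rescue mice carried the same deletion together with a doxycycline-inducible Firre cDNA transgene and an rtTA transgene driven by the broadly active CAG promoter, and were the group fed doxycycline, so transgene, rtTA and diet cannot be told apart. The sort took cells that were negative for a lineage antibody cocktail, low for Sca1 and c-Kit and positive for the IL-7 receptor.

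A light chain is made late in B cell development, when the kappa or lambda locus rearranges and its constant exon is spliced to a joined V-J exon. Before that, a heavy chain pairs with a surrogate light chain built from the products of Igll1 (lambda-5) and Vpreb1, and this pre-B cell receptor signals through the Cd79a and Cd79b subunits to kinases and to the adaptor Blnk. CLPs stand before this checkpoint, and part of them already transcribe early B lineage genes. Constant-gene transcripts in bone marrow are also known from antibody-secreting cells, which make them in very large amounts.

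Firre itself checked the labels. It was listed at 0 TPM in all 4 KO libraries, lay between 25.2 and 31.6 TPM in the WT libraries and between 59.9 and 174 TPM in the Rescue libraries. Transcripts of the sorted markers (Il7r, Kit and Ly6a, which encodes Sca1) and of Flt3, Dntt and Ly6d, which CLPs are known to express but which were not gated on, were detected in every library, and Dntt reached 4315 to 6725 TPM across the 12. Of these 6, Ly6d, a surface marker of B-biased CLPs, was 1.36 log2 units higher in Rescue than in KO (SE 0.12, adjusted p = 6.03e-05) and 1.24 higher than in WT (SE 0.12, adjusted p = 9.32e-05). Kit differed by -0.49 (SE 0.12, adjusted p = 0.0137) and -0.40 (SE 0.12, adjusted p = 0.0373) in the same comparisons. The part of these shifts in the members' levels was not tested. Of the lineage antibody targets, Cd3e stayed at 0 to 0.73 TPM. Library depth, recovered from the spacing of the values, was 11084193 to 18321360 reads in WT and KO and 26097821 to 32941755 in Rescue, so low levels rest on more reads in Rescue. Rescue libraries also came from a library number range of their own, so group and library series cannot be told apart there. Nothing in the labels says whether animals were pooled, and p-values measure the spread between these libraries.

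The light-chain constant genes are shown first because their reads carry the largest differences. Igkc lies at chr6:70726435-70726754 of mouse assembly GRCm38.p6 (the assembly of the deposited table, also called mm10), downstream of the kappa J segments. Iglc1 (chr16:19061752-19062071), Iglc3 (chr16:19065365-19065681) and Iglc2 (chr16:19198536-19198852) lie in the lambda locus, which also lies on the chromosome that holds Igll1 (chr16:16860671-16863985) and Vpreb1 (chr16:16868401-16869255). The first 300 coding bases of Igkc, and those of Iglc2 and Iglc3, are given from the Gencode transcripts of the earlier assembly NCBIM37. Capitals mark the positions at which Iglc2 and Iglc3 differ. Over 315 coding bases they differ at 11 (96.5% identity), and the longest stretch without a difference is 79 bases, so reads shorter than that stretch can fit both genes and the division of reads between them is uncertain.
Igkc: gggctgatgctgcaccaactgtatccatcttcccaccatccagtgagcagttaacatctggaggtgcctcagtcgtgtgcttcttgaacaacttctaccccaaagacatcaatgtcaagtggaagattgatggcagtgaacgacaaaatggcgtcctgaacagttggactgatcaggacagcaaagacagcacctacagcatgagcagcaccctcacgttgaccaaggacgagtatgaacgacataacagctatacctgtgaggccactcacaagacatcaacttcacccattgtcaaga
Iglc2: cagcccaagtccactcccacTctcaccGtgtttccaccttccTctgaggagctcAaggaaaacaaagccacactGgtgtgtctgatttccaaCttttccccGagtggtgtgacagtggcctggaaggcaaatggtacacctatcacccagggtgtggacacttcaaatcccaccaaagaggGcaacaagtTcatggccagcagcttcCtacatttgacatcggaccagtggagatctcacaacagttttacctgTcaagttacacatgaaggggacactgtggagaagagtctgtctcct
Iglc3: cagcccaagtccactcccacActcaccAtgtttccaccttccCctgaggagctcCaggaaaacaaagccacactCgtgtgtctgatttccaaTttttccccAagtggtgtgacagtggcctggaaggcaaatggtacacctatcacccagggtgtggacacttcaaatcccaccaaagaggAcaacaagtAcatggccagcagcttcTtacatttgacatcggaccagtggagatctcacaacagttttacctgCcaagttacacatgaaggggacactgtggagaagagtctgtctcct

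Igkc, the constant exon of the kappa light chain, was among the most abundant transcripts of WT and KO CLPs, highest in KO and lowest in Rescue. Its level was 8709, 14169, 10192 and 11967 TPM in WT 6, 8, 10 and 11. In KO 8, 9, 11 and 12 it was 22960, 32650, 30800 and 16161 TPM. In Rescue 1, 2, 3 and 4 it was 2392, 1760, 678 and 19.95 TPM. Every KO library stood above every WT library, every Rescue library stood below both groups, and Rescue 4 stood far below the other Rescue libraries, with 100 Igkc reads against 3819 to 11627. By group mean, Igkc ranked 4 among all genes in WT, 2 in KO and 98 in Rescue.

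Against KO, Igkc in Rescue fell by 5.64 on the log2(TPM + 1) scale (SE 1.10, n = 4 against 4, limma adjusted p = 0.00495). Against WT it fell by 4.48 (SE 1.10, adjusted p = 0.0168). Leaving out Rescue 4 gave -4.12 against KO and -2.96 against WT, leaving out Rescue 1 gave -6.40 and -5.24, and leaving out Rescue 2 gave -6.25 and -5.09. Both calls held each time.

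In KO against WT, the difference of Igkc was 1.16 log2 units (SE 1.10, 95% confidence interval -1.22 to 3.54, adjusted p = 0.999), and it was not called. The shared estimate of the spread includes the wide Rescue values. In a fit of WT and KO alone the SE was 0.27, the unadjusted p 0.00241 and the adjusted p 0.419. None of the 10 genes was called in KO against WT, where 0.0207% of the genes tested were called, and 0 of the 10 had an unadjusted p under 0.05 (2 in the fit of WT and KO alone). Igkc was the only 1 of the 10 whose KO and WT libraries did not overlap, and the share of such genes among all tested was 5.33%.

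**Figure D1:**
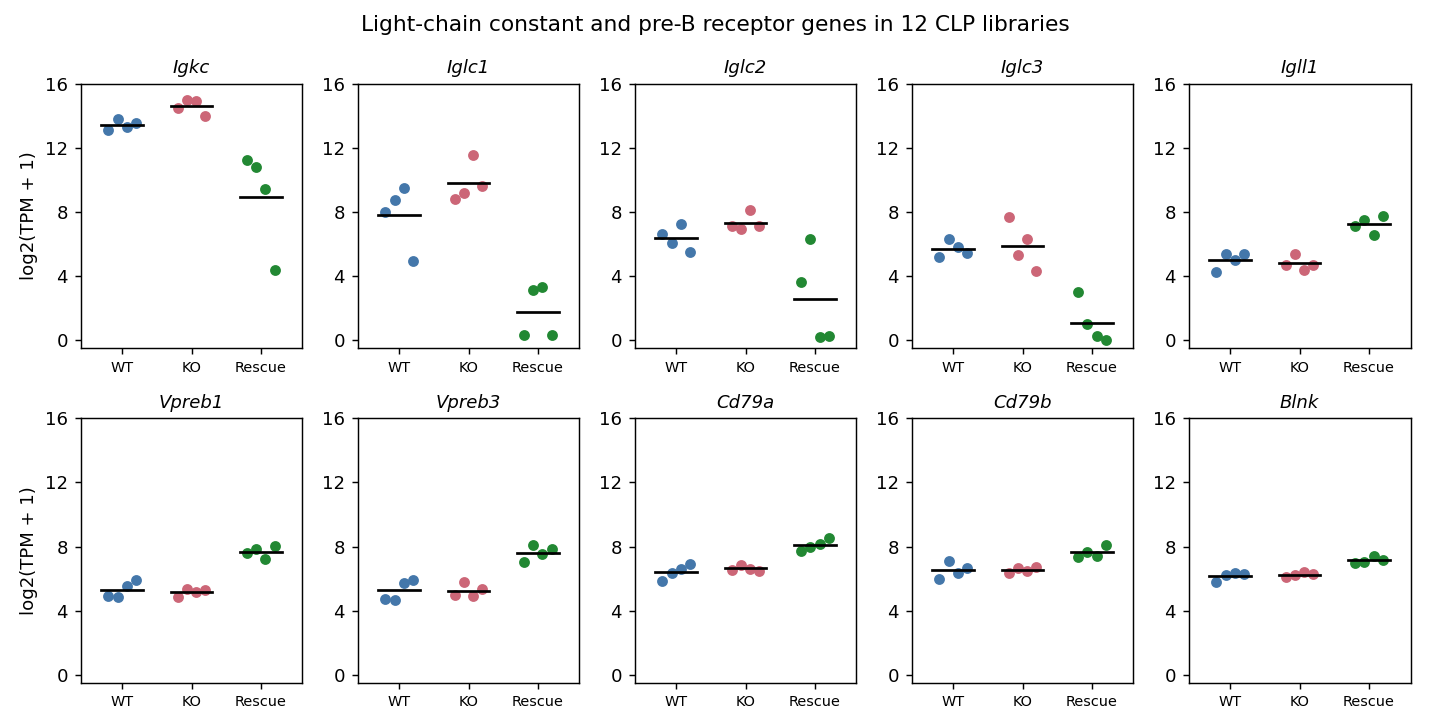
Levels of the 10 genes in the 12 libraries, as log2(TPM + 1) on the vertical axis, with one point per library and a bar at the mean of the 4 libraries of each group (WT, KO, Rescue). The 4 constant genes sit lowest in Rescue and the other 6 genes sit highest there, while WT and KO points overlap in all panels but Igkc.

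The lambda constant genes had lower means than Igkc in every group. Iglc1, which serves the most used mouse lambda chain, was at 259, 432, 728 and 30.2 TPM in WT 6, 8, 10 and 11. In KO 8, 9, 11 and 12 it was at 451, 589, 3020 and 767 TPM. In Rescue 1, 2, 3 and 4 it was at 0.241, 7.71, 8.95 and 0.234 TPM, of which the first and the last rest on 1 read each. All Rescue values lay below all others, WT 11 was the lowest outside Rescue, and WT and KO overlapped.

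Iglc1 fell by 8.03 log2 units in Rescue against KO (SE 0.99, adjusted p = 0.000322) and dropped by 6.05 against WT (SE 0.99, adjusted p = 0.00232). With so few reads in Rescue, the size of these values depends on the pseudocount, and ran from -9.04 to -6.74 against KO and from -7.05 to -4.81 against WT with pseudocounts of 0.1 and 5. Without KO 11 the difference from KO was -7.44, and without WT 11 that from WT was -7.00, both still called. The call against WT was lost when recovered reads were tested with limma-voom (adjusted p = 0.206). KO exceeded WT by 1.98 log2 units (SE 0.99, interval -0.17 to 4.13, adjusted p = 0.929), which was not called. Leaving out each library moved that value between 1.03 (without WT 11) and 2.55 (without WT 10), and it was 1.39 without KO 11.

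Iglc2, the constant gene of another lambda unit, was at 95.9, 65.0, 149 and 44.0 TPM in the WT libraries in the same order. The KO libraries had 138, 119, 280 and 139 TPM. Rescue 1, 2, 3 and 4 had 11.3, 79.0, 0.154 and 0.173 TPM. Rescue 2 lay above WT 8 and WT 11, so Rescue and WT overlapped for this gene, while all Rescue values lay below all KO values. The difference in Rescue was -4.73 log2 units against KO (SE 1.07, adjusted p = 0.0106) and -3.75 against WT (SE 1.07, adjusted p = 0.0321). In a fit of WT and Rescue alone the call against WT was lost (adjusted p = 0.108). Without Rescue 2 the differences were -5.97 from KO and -4.99 from WT, without Rescue 3 they were -3.93 and -2.95, and without Rescue 4 they were -3.94 and -2.96, all called. Pseudocounts of 0.1 and 5 gave -5.82 and -3.57 against KO and -4.83 and -2.63 against WT. KO minus WT was 0.98 (SE 1.07, interval -1.34 to 3.30), which was not called.

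Iglc3, whose sequence is the near copy of Iglc2 shown above, was at 35.8, 78.0, 54.0 and 42.8 TPM in WT and at 203, 38.3, 77.1 and 19.0 TPM in KO. In Rescue it was at 7.02, 0.992, 0.209 and 0 TPM, from 29, 5, 1 and 0 reads. The KO range enclosed the WT range, and Rescue did not overlap with either. The difference was -4.83 log2 units against KO (SE 0.71, adjusted p = 0.000957) and -4.62 against WT (SE 0.71, adjusted p = 0.00159). These sizes also depend on the pseudocount, with -6.38 and -3.30 against KO and -6.17 and -3.08 against WT at 0.1 and 5. Without Rescue 1 they were -5.47 and -5.26, and without KO 8 the difference from KO was -4.23, all called. KO minus WT was 0.21 (SE 0.71, interval -1.32 to 1.74), which was not called.

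The 4 constant genes together summed to 9100 to 14744 TPM in WT, 17086 to 34178 TPM in KO and 20.4 to 2410 TPM in Rescue, and no pair of groups overlapped. An exact permutation test on the log2 sums (two-sided, 70 labelings) gave p = 0.0286, the smallest this design allows, in each of the 3 comparisons. After adjustment over the 15 tests of this kind, p was 0.0612. Igkc made up 90.1% to 99.2% of the sum in every library. These tests therefore restate that the Igkc groups did not overlap and are no separate support. For KO against WT, limma did not call Igkc (adjusted p = 0.999), and 5.33% of all genes tested did not overlap either. The sum was 1.17 log2 units higher in KO than in WT. WT and KO libraries came in 2 ranges of library numbers, each with 2 libraries of each genotype, and within these the sum was 1.09 and 1.25 higher in KO. As every KO sum stood above every WT sum, any split of the libraries gives this direction. The split therefore adds no support to the difference. Of the single genes, Igkc (1.03 and 1.29), Iglc1 (3.33 and 0.63) and Iglc2 (1.86 and 0.10) were higher in KO in both ranges. For Igkc, whose KO and WT libraries did not overlap, that direction was again fixed. The other members differed in sign between the ranges, among them Iglc3 (1.10 and -0.68), Igll1 (-0.86 and 0.39) and Cd79b (-0.49 and 0.55).

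The kappa share of this sum changed little beside the change in its size. Igkc made up 91.6% to 99.0% of it in WT, 90.1% to 97.8% in KO and 95.3% to 99.2% in Rescue. The mean share was 3.0 percentage points higher in Rescue than in KO (exact permutation p = 0.143, adjusted p = 0.268, n = 4 against 4). With Iglc1 alone standing for lambda, that difference was 3.56 points and passed the threshold (adjusted p = 0.0536). Within lambda, Iglc1 gave 25.8% (WT 11) to 78.2% (WT 10) of the TPM in WT and 56.9% (KO 8) to 89.4% (KO 11) in KO. The Rescue libraries ranged from 1.3% (Rescue 1) to 96.1% (Rescue 3), on sums of only 0.407 to 87.7 TPM.

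The surrogate light-chain genes moved the other way. Igll1, which encodes the lambda-5 component of the surrogate light chain, was at 18.4, 41.3, 31.0 and 40.9 TPM in WT 6, 8, 10 and 11. It was at 25.0, 39.9, 19.6 and 25.2 TPM in KO 8, 9, 11 and 12. It was at 135, 178, 93.4 and 210 TPM in Rescue 1, 2, 3 and 4. The lowest Rescue library (93.4 TPM) stood well above the highest WT library (41.3 TPM), and WT and KO overlapped. Igll1 was 2.43 log2 units higher in Rescue than in KO (SE 0.30, adjusted p = 0.000305), a 5.40-fold difference, and 2.20 higher than in WT (SE 0.30, adjusted p = 0.000826).

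Vpreb1, the variable-like component of the surrogate light chain, was at 28.7, 28.4, 46.2 and 60.0 TPM in WT, and at 28.0, 40.3, 34.7 and 38.8 TPM in KO. Rescue had 192, 233, 147 and 257 TPM. Every Rescue library stood above every WT and KO library. The rise was 2.50 log2 units against KO (SE 0.24, adjusted p = 6.92e-05) and 2.36 against WT (SE 0.24, adjusted p = 0.000135).

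Vpreb3, a related protein that binds immunoglobulin chains inside the cell, was at 25.7, 24.8, 52.1 and 60.5 TPM in WT and at 30.6, 55.1, 28.7 and 39.9 TPM in KO. The Rescue libraries had 130, 270, 182 and 226 TPM, again all above the other groups. The rise was 2.36 log2 units against KO (SE 0.32, adjusted p = 0.000583) and 2.34 against WT (SE 0.32, adjusted p = 0.000826).

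No difference between KO and WT was called for these 3 genes, and their intervals stayed under 1 log2 unit on either side. The KO minus WT difference was -0.23 for Igll1 (interval -0.88 to 0.41), -0.14 for Vpreb1 (-0.66 to 0.38) and -0.02 for Vpreb3 (-0.70 to 0.67), each with an adjusted p of 1. The sign for Vpreb3 turned under other scalings, and that for Vpreb1 with a correction for GC content.

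No difference was found in the proportions within the surrogate light chain. The ratio of Igll1 to Vpreb1, in TPM, was 0.640, 1.45, 0.672 and 0.682 in WT, 0.893, 0.990, 0.564 and 0.648 in KO, and 0.705, 0.766, 0.634 and 0.819 in Rescue. WT 8 was the only library in which Igll1 exceeded Vpreb1. The mean log2 ratio differed between Rescue and KO by -0.05 (exact permutation p = 0.800, adjusted p = 0.857, n = 4 against 4), which the spread within each group exceeded. The 3 genes summed to 72.8 to 161 TPM in WT, 82.9 to 135 TPM in KO and 423 to 694 TPM in Rescue. The sum was 2.47 log2 units higher in Rescue than in KO and 2.33 higher than in WT (exact permutation p = 0.0286 and adjusted p = 0.0612 for each, n = 4 against 4).

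**Figure D2:**
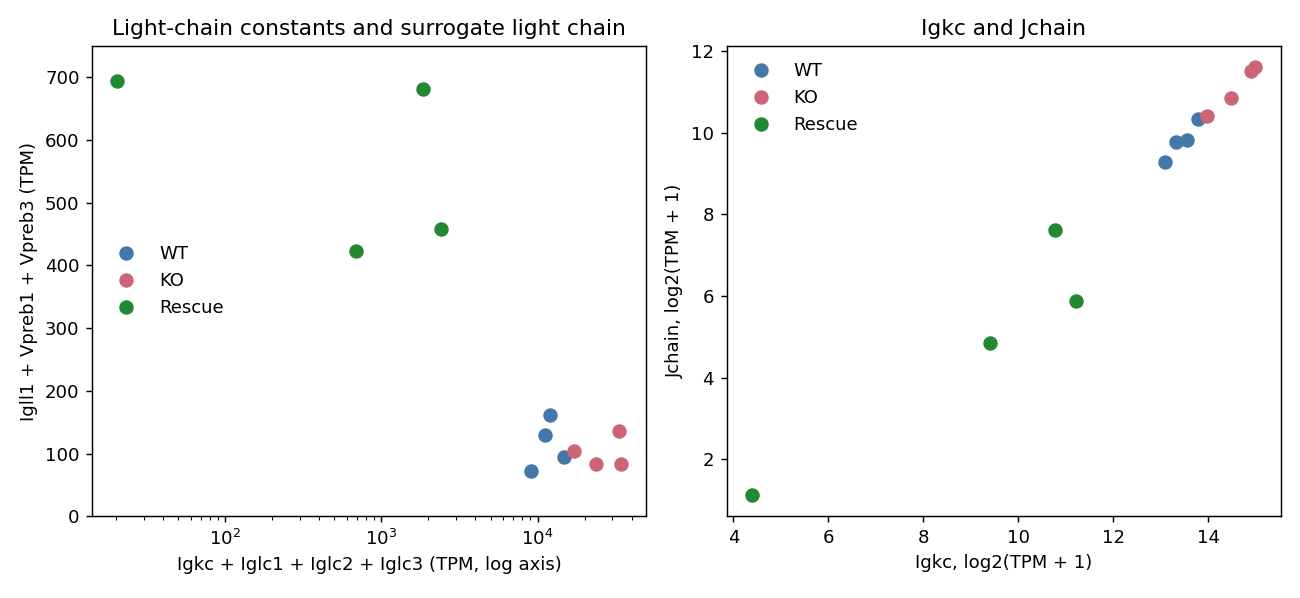
Left, summed light-chain constant TPM (horizontal, log axis) against summed surrogate light-chain TPM (vertical) in each library. Right, Igkc against Jchain, both as log2(TPM + 1). Each point is a library, coloured by group. On the left the Rescue libraries have the lowest constant sums, 20.4 to 2410 TPM, and the highest surrogate sums, 423 to 694 TPM. On the right Igkc and Jchain rise together, with Rescue 4 lowest in both.

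Sequence before the start sites of these genes is available for 5 of the 10 members (Igll1, Vpreb1, Vpreb3, Cd79a and Blnk) in the RefSeq promoter table of GRCm38.p6. They were searched, from 250 bases before the start site to 50 after it, for the core of the EBF motif, CCCNNGGG, which reads the same on both strands. It was found in 1 of the 5, Igll1, against 13.7% of the 32851 promoters of that length. The octamer ATTTGCAT, a motif known from immunoglobulin promoters that was picked after these sequences had been read, was searched on both strands (ATTTGCAT or ATGCAAAT) and was found in 2 of the 5, Vpreb3 and Blnk, against 1.74% of all. The EBF core and the octamer do not overlap in these windows. The 250 bases before the start are shown for the surrogate light-chain genes, which rose together, and for Blnk. Capitals mark the EBF core in Igll1 (starting 231 bases before the start site), the octamer in Vpreb3 (45 before) and Blnk (130 before), and in Vpreb1 a run of 91 bases that is identical in the promoter of its near copy Vpreb2.
Igll1, chr16:16863986-16864235, minus strand: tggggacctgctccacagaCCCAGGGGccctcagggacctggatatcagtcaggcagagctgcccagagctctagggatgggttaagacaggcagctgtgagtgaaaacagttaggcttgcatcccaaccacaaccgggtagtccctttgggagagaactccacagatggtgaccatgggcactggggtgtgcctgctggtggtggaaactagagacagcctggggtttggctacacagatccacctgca
Vpreb1, chr16:16869256-16869505, minus strand: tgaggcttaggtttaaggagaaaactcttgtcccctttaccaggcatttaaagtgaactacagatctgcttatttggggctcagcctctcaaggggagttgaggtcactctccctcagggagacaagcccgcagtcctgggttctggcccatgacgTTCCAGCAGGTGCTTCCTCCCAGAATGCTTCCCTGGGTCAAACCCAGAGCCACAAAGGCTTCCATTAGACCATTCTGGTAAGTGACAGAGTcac
Vpreb3, chr10:75948050-75948299, plus strand: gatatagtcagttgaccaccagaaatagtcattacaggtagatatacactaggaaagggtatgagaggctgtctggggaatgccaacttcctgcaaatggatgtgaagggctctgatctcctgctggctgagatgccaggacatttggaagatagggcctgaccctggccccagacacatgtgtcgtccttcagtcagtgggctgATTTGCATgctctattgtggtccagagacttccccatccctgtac
Blnk, chr19:40994222-40994471, minus strand: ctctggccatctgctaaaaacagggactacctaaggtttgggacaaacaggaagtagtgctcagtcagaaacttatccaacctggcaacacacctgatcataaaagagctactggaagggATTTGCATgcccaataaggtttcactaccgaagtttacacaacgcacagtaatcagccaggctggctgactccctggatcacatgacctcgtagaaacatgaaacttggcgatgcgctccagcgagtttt

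Cd79a and Cd79b encode the signalling subunits (Ig-alpha and Ig-beta) of both the pre-B and the mature B cell receptor, and both rose in Rescue. Cd79a (chr7:24897497-24901858) was at 55.7, 82.2, 94.6 and 122 TPM in WT and at 94.0, 116, 97.3 and 88.5 TPM in KO. In Rescue it was at 207, 251, 287 and 370 TPM. Rescue did not overlap with the other groups. Cd79a was 1.46 log2 units higher in Rescue than in KO (SE 0.22, adjusted p = 0.00105) and 1.67 higher than in WT (SE 0.22, adjusted p = 0.000661).

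Cd79b (chr11:106311341-106314562) was at 62.0, 137, 79.2 and 100.3 TPM in WT and at 79.3, 101, 86.8 and 106 TPM in KO. In Rescue it was at 165, 202, 171 and 276 TPM, and WT 8 came nearest to this range. The rise was 1.10 log2 units against KO (SE 0.22, adjusted p = 0.00592) and 1.13 against WT (SE 0.22, adjusted p = 0.00575).

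The proportion of the subunits shifted as well. The ratio of Cd79a to Cd79b in TPM was 0.898, 0.602, 1.19 and 1.22 in WT, 1.19, 1.15, 1.12 and 0.835 in KO, and 1.25, 1.25, 1.68 and 1.34 in Rescue. Every Rescue ratio lay above every WT and KO ratio, though by little for WT 10, WT 11 and 3 of the KO libraries. The log2 ratio was 0.37 higher in Rescue than in KO and 0.54 higher than in WT (exact permutation p = 0.0286 and adjusted p = 0.0612 for each, n = 4 against 4). KO exceeded WT by 0.18 (exact permutation p = 0.714, adjusted p = 0.857, n = 4 against 4).

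Blnk (chr19:40928927-40994221), the adaptor that links the kinase Syk to phospholipase C-gamma, had the smallest SE of the 10. It was at 54.9, 75.2, 81.3 and 77.8 TPM in WT, at 67.2, 74.0, 83.9 and 76.4 TPM in KO and at 123, 131, 172 and 143 TPM in Rescue. Rescue lay above all other libraries, and the rise was 0.90 log2 units against KO (SE 0.14, adjusted p = 0.00127) and 0.97 against WT (SE 0.14, adjusted p = 0.000986). Between KO and WT the differences of Cd79a, Cd79b and Blnk were 0.21 (interval -0.27 to 0.68), 0.03 (-0.45 to 0.51) and 0.07 (-0.23 to 0.37), none of them called.

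In Rescue against KO, all 10 genes were called, 6 higher and 4 lower, where 27.9% of all genes tested were called, 8.58% higher and 19.3% lower. In Rescue against WT the counts were again 6 higher and 4 lower, against 24.3% of all genes called, 4.82% higher and 19.4% lower. The libraries did not overlap for 10 of the 10 in Rescue against KO, where 21.9% of all genes did not overlap. They did not overlap for 9 of the 10 in Rescue against WT, where the share was 18.0%. These comparisons share the Rescue libraries. The median fitted difference over the genes tested was -0.16 in Rescue against KO and -0.21 in Rescue against WT, and rescaling by median ratios moved the latter to -0.03. The split of all calls against WT, 19.9% higher as deposited, became 50.6% higher under that rescaling, and that against KO went from 30.7% to 50.2%. The direction of each of the 10 members in both Rescue comparisons was the same under every scaling tried.

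**Figure D3:**
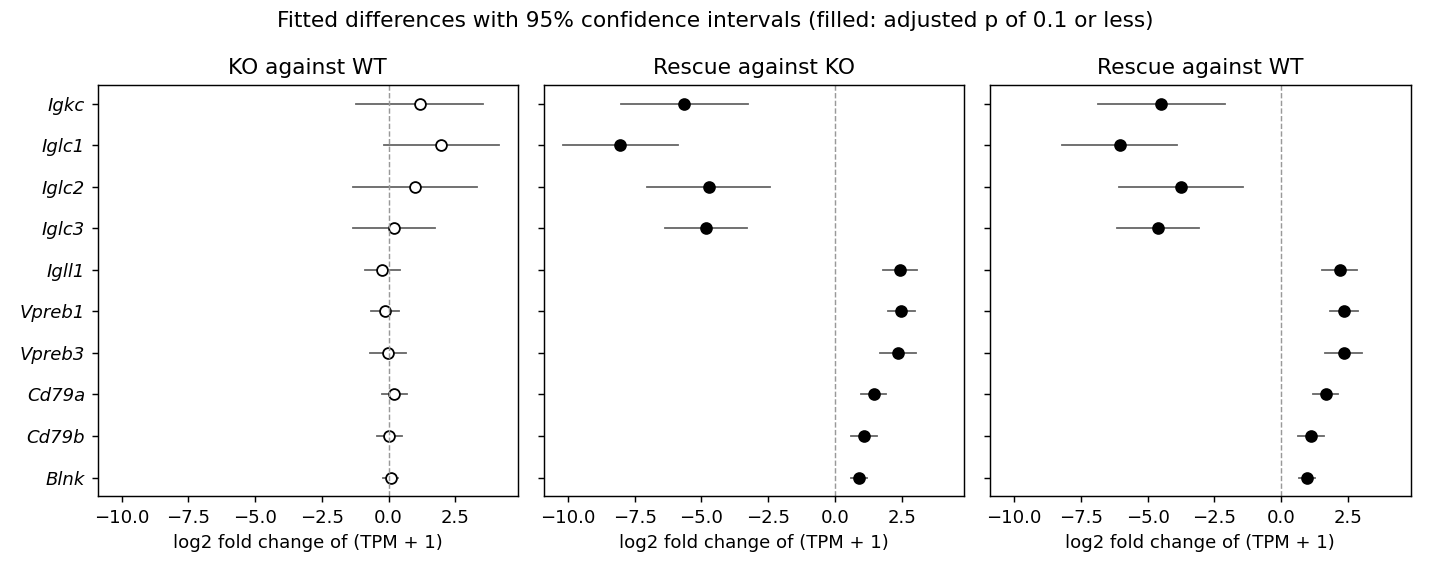
Fitted log2 fold change of (TPM + 1) for each gene in the 3 comparisons (horizontal axis), with 95% confidence intervals from limma. Filled points passed an adjusted p of 0.1. In KO against WT all intervals include 0; in both Rescue comparisons the 4 constant genes lie between -8.03 and -3.75 and the other 6 between 0.90 and 2.50.

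Over the 12 libraries the genes varied together within their families, and the surrogate light-chain and signalling genes also did so with each other. Pearson's r of log2(TPM + 1) was 0.94 to 0.98 between the surrogate light-chain genes and 0.80 to 0.88 between the constant genes. Between surrogate light-chain genes and Cd79a, Cd79b and Blnk it was 0.85 to 0.95. Much of this is the step between Rescue and the other groups. Among deviations from group means, r was 0.56 to 0.82 between surrogate light-chain genes, 0.38 to 0.67 between Cd79a, Cd79b and Blnk, and -0.09 to 0.63 between constant genes. Between surrogate light-chain genes and Cd79a, Cd79b and Blnk it was 0.11 to 0.78, a range that overlaps with those within families. These are descriptions of 12 libraries of unequal depth.

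Among named genes outside the members and the immunoglobulin segments, the pattern most like that of Igkc over the 12 libraries was that of Jchain (r = 0.98), the joining chain of secreted IgM and IgA. It was followed by Hbp1, a transcriptional repressor (0.96), A930001N09Rik (0.94), the melanocortin receptor Mc5r (0.94) and the kinase Braf (0.94). Jchain was at 619 to 1296 TPM in WT, 1369 to 3110 TPM in KO and 1.18 to 195 TPM in Rescue, and among deviations from group means its r with Igkc was 0.94. The genes most like Igll1 were Cecr2 (r = 0.97), Cplx2 (0.97), Pde2a (0.96) and the ribosomal protein genes Rpl10a and Rpl11 (both 0.95). Rpl10a was at 727 to 888 TPM in WT, 761 to 808 TPM in KO and 1077 to 1172 TPM in Rescue.

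Markers of some other cells moved with the constant genes. The 10 antibody-secreting cell markers (Sdc1, Jchain, Xbp1, Prdm1, Mzb1, Tnfrsf17, Irf4, Derl3, Fkbp11 and Eaf2) summed to 890 to 1649 TPM in WT, 1628 to 3447 TPM in KO and 310 to 536 TPM in Rescue, with Jchain the largest part of the WT and KO sums. In Rescue against KO, 5 of the 10 fell (Jchain, Tnfrsf17, Derl3, Prdm1 and Xbp1) and 2 rose (Mzb1 and Sdc1). Against WT, 4 fell (Jchain, Derl3, Tnfrsf17 and Xbp1) and Mzb1 rose. Tnfrsf17, the plasma cell survival receptor, was listed at 0 in 3 of the 4 Rescue libraries, at 0.349 to 3.56 TPM in WT and at 5.91 to 11.1 TPM in KO. In KO against WT none of the 10 was called. Only Tnfrsf17 passed 0.05 before adjustment (1.66 log2 units, limma unadjusted p = 0.0036, adjusted p = 0.889). The 4 basophil and mast cell markers (Prss34, Mcpt8, Cpa3 and Ms4a2) summed to 919 to 8083 TPM in WT, 2669 to 3919 TPM in KO and 63.5 to 136 TPM in Rescue, and all 4 fell in both Rescue comparisons. Of the 4 NK cell markers (Ncr1, Klrb1c, Prf1 and Gzma) all 4 fell against KO and 3 against WT, from sums of 116 to 403 TPM in WT and 184 to 340 TPM in KO to 42.2 to 70.5 TPM in Rescue. Of the 5 markers of group 2 innate lymphoid cells, 4 were tested. All of these (Il1rl1, Rora, Gata3 and Icos) fell against KO and 3 (without Icos) against WT, from sums of 72.6 to 109 TPM in WT and 86.7 to 109 TPM in KO to 42.1 to 66.3 TPM in Rescue. Of 7 neutrophil markers, Mpo fell in both Rescue comparisons and 6 were not called. Of 3 erythroid markers none was called against KO, and Hba-a2 rose against WT. Of 4 plasmacytoid dendritic cell markers tested, Bst2 rose and Ccr9 and Tcf4 fell against KO, and Tcf4 fell against WT. Of 2 T cell markers tested, Trac fell in both. The part of these cells in the levels of the constant genes was not tested, and in bulk libraries fewer cells of a type and less RNA per cell cannot be told apart.

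The mature B cell markers were low where they define the cell. Among the 11 found, Cr2 reached at most 0.489 TPM, Fcer2a 1.24 TPM and Ms4a1 3.64 TPM in any library, and the sum of the list, mostly Cd74 and other class II genes, was 346 to 635 TPM in WT, 406 to 502 TPM in KO and 360 to 531 TPM in Rescue. Early B genes moved with the surrogate light chain. Of 8 on that list, 5 rose in both Rescue comparisons, among them Pax5, Ebf1 and Rag1, and none fell, and the sum was 5531 to 8265 TPM in WT, 6815 to 7165 TPM in KO and 8052 to 8457 TPM in Rescue, mostly Dntt.

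Most other genes of the light-chain loci fell in Rescue. Of the 9 found and tested (Vpreb2, 5 kappa J segments and Iglv1, Iglv2 and Iglv3), 7 fell in both Rescue comparisons, and none was called in KO against WT (median 0.82). Among those that fell were Iglv1, a lambda variable gene, at -7.63 against KO (SE 1.09, adjusted p = 0.000853), and the kappa J segments Igkj4 and Igkj2, at -6.22 (SE 0.63) and -5.75 (SE 0.64) against WT. Igkj3, at 42.3 to 321 TPM in KO, and Igkj5 were listed at 0 in all 4 Rescue libraries, so no size is given for them, and no median of the list is given for the Rescue comparisons. Iglv2, another lambda variable gene, was called in neither (adjusted p = 0.169 against KO and 0.777 against WT): it was at 99.7 TPM in Rescue 2 and listed at 0 in the other Rescue libraries, at 0.777 to 12.6 TPM in WT and at 0 to 268 TPM in KO. Vpreb2, the near copy of Vpreb1, was the only list member that rose against KO, by 1.45 (SE 0.48, adjusted p = 0.0537), and its 1.21 against WT was not called (adjusted p = 0.106). Its Rescue levels of 19.4 to 64.8 TPM overlapped with the 9.28 to 49.8 TPM of WT and with the 10.1 to 21.6 TPM of KO.

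Genes that carry the receptor's signal did not move as a block. Of 22 positive signalling genes, 5 rose and 4 fell in Rescue against KO (median 0.10), and 4 rose and 6 fell against WT (median -0.09). For comparison with this and the other lists, 8.58% of all genes tested were called higher and 19.3% lower against KO. Against WT these shares were 4.82% and 19.4%. Pik3ap1, the adaptor BCAP, rose by 0.81 (SE 0.19) and 0.79 (SE 0.19). Rasgrp1, a Ras exchange factor, fell by 1.28 (SE 0.33) against KO and 1.20 (SE 0.33) against WT, and Sos1, another exchange factor, by 0.66 (SE 0.26) and 0.85 (SE 0.26). The kinases Syk and Btk were not called in any comparison.

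Of 10 inhibitory genes, 4 rose and 2 fell against KO (median 0.10), and 1 rose and 2 fell against WT (median -0.07). The calls of Cd72 and Sos1 against KO were each lost in 10 of the 12 fits that left out a library, that of Dok3 against WT in 6, and those of Vpreb2 and Pirb against KO in 4 and 1. Dok3, an adaptor that dampens receptor signalling, rose by 1.32 against KO (SE 0.32, adjusted p = 0.0146) and 0.94 against WT (SE 0.32, adjusted p = 0.0629). Cd72, an inhibitory co-receptor, rose by 0.50 against KO (SE 0.20, adjusted p = 0.0976). Fcgr2b, the inhibitory Fc receptor, fell by 1.70 (SE 0.29) and 1.87 (SE 0.29), and Pirb, an inhibitory receptor that myeloid cells also carry, fell by 1.19 (SE 0.38) and 1.49 (SE 0.38).

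Among 13 transcription factors and recombination genes that act on these loci, 5 rose and 1 fell in each Rescue comparison. Pax5, the factor of B lineage commitment, rose by 1.47 against KO (SE 0.22, adjusted p = 0.00119) and 1.28 against WT (SE 0.22, adjusted p = 0.00316). Tcf3, which encodes E2A, rose by 1.30 against KO (SE 0.15, adjusted p = 0.000243), and Ebf1, an activator of the surrogate light-chain genes, by 0.99 against WT (SE 0.18, adjusted p = 0.00416). Ikzf3, which encodes Aiolos, had differences of -1.75 and -1.72 (SE 0.31 for both). The list medians were 0.38 and 0.22. None of the signalling, inhibitory or factor genes was called in KO against WT, where 0, 1 and 1 of them passed 0.05 before adjustment.

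**Figure D4:**
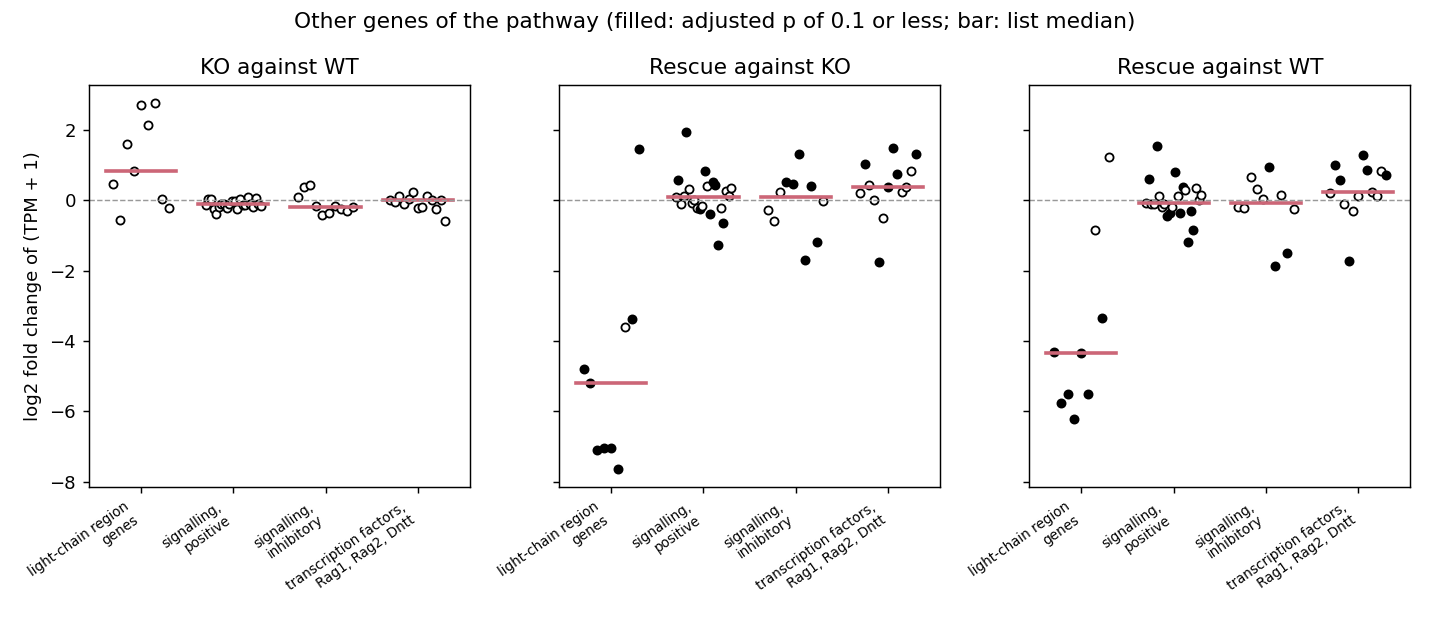
Fitted log2 fold change of (TPM + 1) of the other genes of the pathway in the 3 comparisons, one point per gene, filled where the adjusted p was 0.1 or less, with a bar at the median of each list. The bars of the light-chain region genes in the Rescue comparisons take in Igkj3 and Igkj5, listed at 0 in Rescue, and are no measure of size. Vpreb2 is the only light-chain region gene above 0 there, and the medians of the other lists lie between -0.19 and 0.38.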

How the data were processed

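The authors trimmed reads with cutadapt, aligned them with TopHat2 2.1.1 to mm10 and counted them per gene with featureCounts, per the labels and the study's methods. The deposited values are TPM (counts per base of gene length, scaled to 1000000 in each library) for 47643 genes. The handling of strand and of reads that fit several genes is not given in the sources used here, so reads of near copies (Iglc2 and Iglc3, Vpreb1 and Vpreb2) may have been divided between them. Symbols were matched for 32799 gene identifiers. The 3 identifiers of Iglc1, Iglc3 and Mzb1 were named as the study's gene list pairs them, and 6 older symbols were updated from RefSeq synonyms.

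TPM values were tested as log2(TPM + 1) with limma 3.58.1 in R 4.3.3, with all 12 libraries and 3 groups in one fit, a variance trend and no block, on 14479 genes with mean TPM of at least 1. Benjamini-Hochberg adjustment ran over all of them and calls were made at an adjusted p of 0.1 or less, two-sided. Fold changes on this scale understate the change of low genes. Sums and ratios of members were compared by exact permutation tests over libraries, with 15 tests in the family. Reads were recovered from the spacing of TPM values (99.9% of values above 0 came to whole reads within 0.05 of a read) and used for depth and for a limma-voom alternative. On simulated data for KO against WT with 14148 genes, 175 of 200 changed genes were called and 40 unchanged ones were. The changed genes had a median fitted difference of 0.93 log2 units and were picked among genes with many reads. All groups were simulated with the same spread, without the wide Rescue values. The simulation therefore does not give the share of real differences that this fit would call. Means are given over 4 libraries. The genes described, those of the pathway and marker lists, and the tests were chosen with earlier results of these data known. Named from each pathway list were the called genes with the 2 largest rises and the 2 largest falls per comparison, and for Igkc and Igll1 the 5 named genes of most similar pattern. One gene that this rule names is not reported here. The alternatives tried were other pseudocounts, filters, scalings, thresholds, fits of 2 groups, blocks, a GC correction and leaving out each library. The symbols Iglc4, Iglj1, Iglj2, Iglj3, Ighd and Hbb-bs of the lists were not analysed here.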

Additional observations from a re-analysis of the deposited data

Results flagged for a closer look

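Among 45 sets of 4 libraries (10 genes and 5 sums or ratios in 3 groups), 2 held a library whose gap to the nearest other exceeded Dixon's 95% limit, where chance gives about 5% of sets, or 2.25. The log2 ratio of Igll1 to Vpreb1 was 0.54 in WT 8 and -0.64 to -0.55 in the other WT libraries. The log2 ratio of Cd79a to Cd79b was -0.26 in KO 12 and 0.16 to 0.25 in the other KO libraries.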

How the results depend on the processing

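In both Rescue comparisons all 10 genes kept their direction under every alternative, and calls were lost only for Iglc1 (limma-voom) and Iglc2 (fit of 2 groups) against WT. GC content was known for 8 of the 10, without Iglc1 and Iglc3. In KO against WT none was called under any alternative. Signs of small KO against WT differences turned: Vpreb1 was 0.0315 with the GC correction, and Vpreb3 was 0.0513 after median ratio rescaling, 0.0600 after quantile normalization, 0.0108 without immunoglobulin segments, 0.00224 with limma-voom and 0.0527 with the GC correction. Leaving out each library gave -0.38 to 0.73 for Iglc3, -0.29 to 0.0648 for Vpreb1, -0.21 to 0.21 for Vpreb3, -0.15 to 0.23 for Cd79b and -0.0536 to 0.13 for Blnk.

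Of all genes, 3 were called in KO against WT (767 at an unadjusted p under 0.05): 6 without a filter, 1 in the fit of 2 groups, 1 with a block of library number range, 0 with limma-voom (369 unadjusted) and 1 to 5 without a library. Counts fell from 4043 to 2554 (Rescue against KO) and from 3512 to 1996 (Rescue against WT) with the GC correction, which tested fewer genes, to 2263 in the fit of Rescue and WT alone, and to 2682 in Rescue against KO at an adjusted p of 0.05. The causes were not tested.

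Leaving out a library left the smallest exact permutation p at 0.0571, too high to pass after adjustment. The called sums and ratios came from groups that did not overlap, so leaving out a library could not turn their directions. Directions of the called sums and ratios held: 1.04 to 1.37 (KO against WT), -6.46 to -4.17 (Rescue against KO) and -5.29 to -3.0 (Rescue against WT) for the log2 constant sum, 2.36 to 2.62 and 2.13 to 2.52 for the log2 surrogate sum and 0.25 to 0.42 and 0.33 to 0.67 for the log2 Cd79a to Cd79b ratio. Values not called turned sign: the kappa share in KO against WT (-2.16 to 0.72 points), the log2 Igll1 to Vpreb1 ratio (-0.23 to 0.18, -0.19 to 0.0790 and -0.26 to 0.13 in the same order of comparisons), the Cd79a to Cd79b ratio (-0.0384 to 0.30) and the surrogate sum (-0.34 to 0.0471) in KO against WT. With Iglc1 alone as lambda, the kappa share in Rescue against KO differed by 3.56 points and passed.

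WT and KO share 2 replicate numbers, 8 and 11. The pairing check gave correlations of deviations of -0.04 and -0.03 for these pairs, and with the replicate block 3 genes were called, as without it, and no member.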
